A study of Mus musculus with 17 samples.

Results

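The genes described here are the 5 dopamine receptors of the mouse, Drd1, Drd2, Drd3, Drd4 and Drd5, and the measurement is the accessibility of their chromatin. ATAC-seq reads it from where a transposase can reach and tag the DNA, and here the nuclei were those of NeuN+ cells, that is neurons, sorted from the nucleus accumbens (NAc). The members were found by position: every peak of the 17 libraries that overlapped a receptor gene body or the 10 kb on either side was taken, and overlapping peaks were merged. This gave 53 regions out of 281189 in the series, of which 31 were called in at least 2 libraries of 1 group (147420 in the series) and were kept. The kept regions were 8 at Drd1, 10 at Drd2, 11 at Drd3, 2 at Drd4 and 0 at Drd5, and 22 further regions that did not meet this minimum were left out of all counts below unless stated.

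The mice were C57BL/6 animals (C57BL/6J in the methods of the study) of 52 to 54 days, and each library pooled 3 animals. Females were taken in diestrus, a low-estrogen stage, or in proestrus, a high-estrogen stage, and males were age-matched. Cocaine animals received 10 mg/kg intraperitoneally and were killed 1 h later, while control animals received no cocaine and stood for the time before it. No vehicle injection is described for them, and without one cocaine cannot be told apart from the handling and the hour that followed. Each of the 6 groups held 3 libraries, except male cocaine with 2.

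Dopamine receptors are G-protein-coupled receptors. The D1-like receptors, encoded by Drd1 and Drd5, couple to stimulatory G proteins and raise cyclic AMP, and the D2-like receptors, encoded by Drd2, Drd3 and Drd4, couple to inhibitory G proteins and lower it. In the NAc most neurons are GABAergic medium spiny neurons, which fall largely into a Drd1-expressing and a Drd2-expressing class, and Drd3 is a receptor known for its high expression in this part of the striatum. Cocaine blocks the dopamine transporter and so raises extracellular dopamine at these receptors.

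A peak was either called in a library or not. A called peak carried a fold enrichment, the number of reads piled up at its summit over the background of the same library (1 read was added to each), and a region took the fold enrichment of its strongest peak. An uncalled library held no value, and a missing call means only that no peak passed the caller's threshold at that depth. The background ranged from 6.26 to 9.55 reads over the libraries, and the smallest fold enrichment of any peak from 1.97 to 2.21. Libraries held 75458 to 157005 peaks, with the fewest in the male cocaine libraries (75458 and 87707, against 134653 to 150009 in the male controls). The mean GC content of a library's peaks ranged from 44.3% to 46.9%. All 4 pan-neuronal marker genes examined had a promoter peak in all 17 libraries, as did 9 of 10 GABAergic and medium spiny neuron markers, while a promoter peak in all libraries was found for 0 of 3 astrocyte, 1 of 4 oligodendrocyte and 1 of 3 microglial markers. Of the 13 glial and endothelial markers examined, Cx3cr1 and Cldn5 had no promoter peak in any library and the other 11 had one in at least 1 library, with Mbp of oligodendrocytes and Aif1 of microglia in all 17. Since each library came from many cells, fewer cells of a type and less signal per cell cannot be told apart in any value below.

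The receptors differed first in how much of their chromatin was called open. Of the 31 kept regions, 11 were called in all 17 libraries: 2 at Drd1, 5 at Drd2, 4 at Drd3 and 0 at Drd4. Another 3 were called in 14 to 16 libraries, 12 in 4 to 13 and 5 in 2 or 3. By position, 6 overlapped the promoter (within 1 kb of an annotated transcript start), 3 overlapped another exon, 12 were intronic, 3 lay upstream and 7 downstream. A protein-coding gene had a median of 3 kept regions in a window made the same way.

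**Figure D1:**
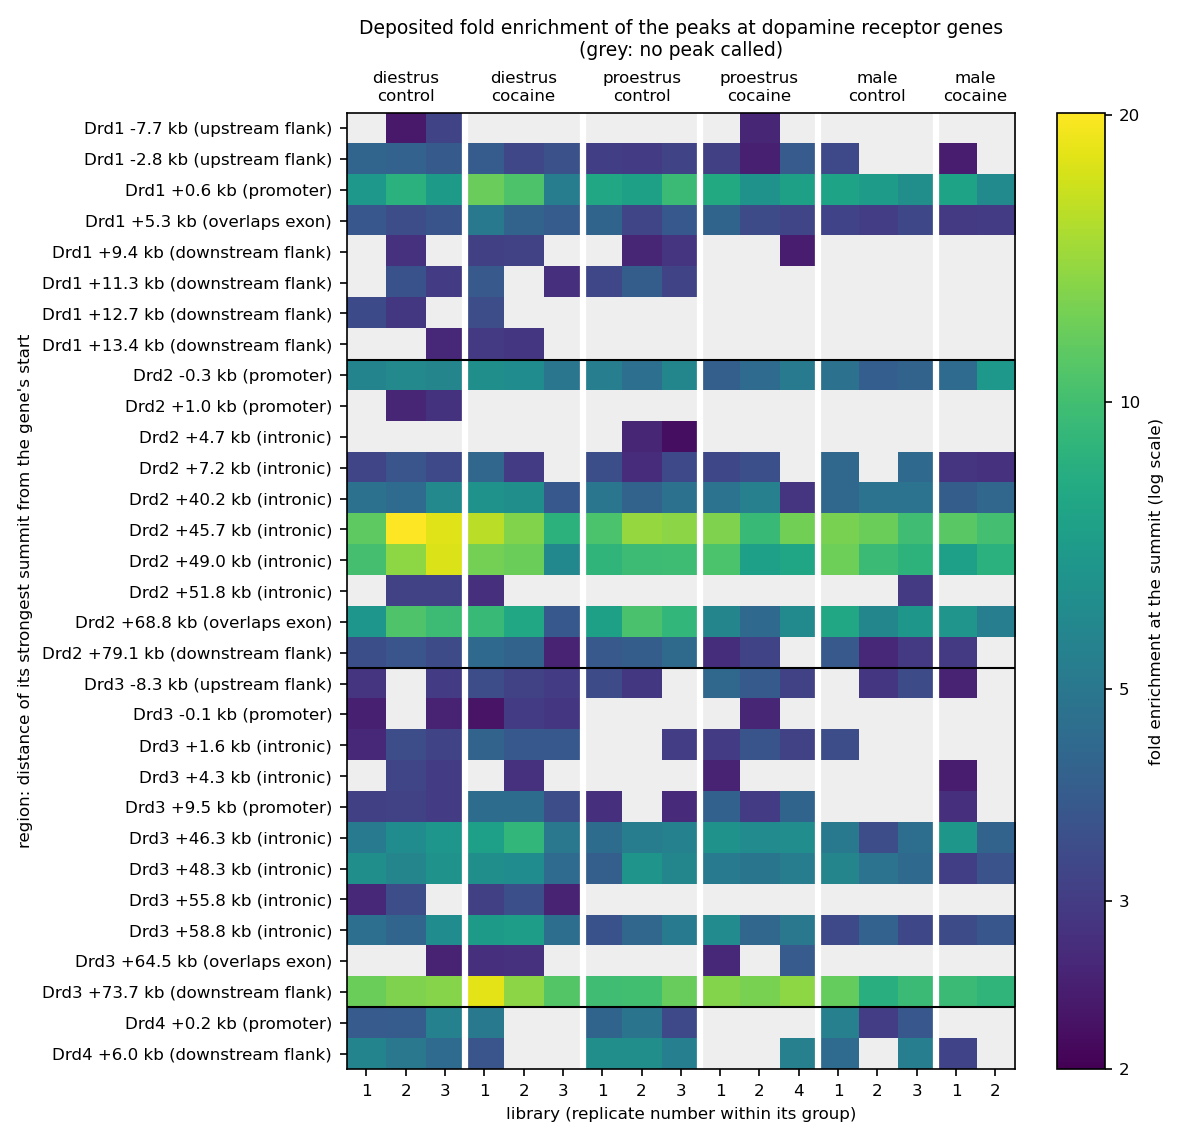
Each row is 1 of the 31 kept regions, named by its gene and the distance of its strongest summit from the gene's start (kb), and each column is 1 of 17 libraries, ordered by group. Colour gives the deposited fold enrichment on a log scale and grey marks a library without a peak. The 11 regions called in all libraries run unbroken from left to right, and the Drd4 promoter row is coloured in 9 of 9 control and 1 of 8 cocaine libraries.

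Drd1, which marks the neurons of the direct pathway, is a short gene on chromosome 13 (chr13:54051183-54055705, minus strand, mm10), and peaks covered more of its window than of any other receptor's. Its promoter region (chr13:54052780-54057417) was called in all 17 libraries with a mean fold enrichment of 7.77, above that of 2471 of the 12344 promoters called in every library. Its strongest summit lay in either of 2 places. In 10 libraries the strongest lay 4 to 73 bp from the start of the gene, and in 7 it lay 526 to 577 bp inside. A region over the last exon and the sequence beyond it (chr13:54047118-54052702) was also called in all 17 libraries, at a mean fold enrichment of 3.62. The 203 bases upstream of the start are shown because they are the part of this always-open promoter that lies outside the transcript.
Drd1 upstream, chr13:54055706-54055908, minus strand: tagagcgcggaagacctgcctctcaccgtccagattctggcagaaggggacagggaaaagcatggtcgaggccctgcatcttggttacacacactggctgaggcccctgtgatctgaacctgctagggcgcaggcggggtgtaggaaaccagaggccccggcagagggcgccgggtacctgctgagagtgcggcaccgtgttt

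Drd2, which marks the neurons of the indirect pathway, spans 67.6 kb of chromosome 9 (chr9:49340627-49408177, plus strand). Its promoter region (chr9:49340027-49340862) was called in all 17 libraries at a mean fold enrichment of 5.20, above that of 745 of those promoters. Its summits lay -388 to -222 bp from the start, and its GC content of 68.8% was above that of 99.7% of all regions called in every library (Drd1 promoter, 52.3%, above 79.3%). The strongest regions of the gene were not at the promoter. Intronic regions at +45.7 kb (chr9:49385463-49387532) and +49.0 kb (chr9:49388508-49390689) had mean fold enrichments of 12.7 and 10.2, and an intronic region at +40.2 kb had 4.76. A 10000-bp region that began in the last exon and ran towards the neighbouring gene Ankk1 (chr9:49407547-49417546) had a mean of 7.28, with its strongest summit within 200 bp of 1.27 kb past the gene's end in 16 of 17 libraries. Part of the promoter upstream of the start is shown because it is the region whose enrichment differed between male cocaine and male control libraries. The capitals mark GC boxes (GGGCGG, read on both strands), of which it holds 2.
Drd2 upstream, chr9:49340153-49340402, plus strand: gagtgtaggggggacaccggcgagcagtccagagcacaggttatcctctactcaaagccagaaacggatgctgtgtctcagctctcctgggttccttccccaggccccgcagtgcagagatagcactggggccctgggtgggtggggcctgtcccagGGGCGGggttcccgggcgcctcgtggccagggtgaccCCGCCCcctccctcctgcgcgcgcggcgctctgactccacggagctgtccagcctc

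Drd3 spans 68.9 kb of chromosome 16 (chr16:43754026-43822932, plus strand), and it was the receptor whose promoters were called least regularly among those with regions called in every library. The annotated promoter (chr16:43753474-43754527) was called in 6 of 17 libraries at fold enrichments of 2.26 to 3.02. A region further down, at +9.5 kb (chr16:43763081-43763866), was called in 12. It was classed as a promoter because its edge lies within 1 kb of the start of a shorter transcript (position 43762221). It lies inside that transcript, with its strongest summit more than 1 kb from that start. The regions called in all 17 libraries were intronic, at +46.3 kb (mean fold enrichment 5.76), +48.3 kb (5.23) and +58.8 kb (4.72), or lay 4.76 kb past the gene's end (chr16:43826627-43828909), where the mean reached 11.8. The strongest region around Drd3 thus lay outside the gene, as the plot of peaks along the genes shows.

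The remaining regions of these genes were weaker and less regular. A region upstream of Drd1, at -2.8 kb, was called in 14 libraries, at fold enrichments of 2.40 to 4.26, and the libraries without it were 2 male controls and 1 male cocaine. At Drd2 an intronic region at +7.2 kb was called in 14 libraries and a region at +79.1 kb, 11.51 kb past the gene's end, in 15, and the edge of the promoter at +1.0 kb in 2 diestrus controls, at 2.57 and 2.80. At Drd3 an upstream region at -8.3 kb was called in 13 libraries, and an intronic region at +55.8 kb and a region overlapping an exon at +64.5 kb in 5 each, none of them from males.

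Drd4 (chr7:141292006-141296464, plus strand) had 2 kept regions, its promoter (chr7:141291872-141292959; 10 libraries; GC content 60.5%) and a region 1.56 kb past its end (chr7:141297830-141298571; 11 libraries) that lies inside the neighbouring gene Deaf1, which is transcribed towards Drd4. Drd5 (chr5:38319367-38322518, plus strand) had no peak in any of the 17 libraries within 10 kb. This was not unusual for a gene of its size, since 35.2% of the 4053 protein-coding genes shorter than 5 kb had no region in their window either, and 31.5% of all 21728 protein-coding genes had no promoter peak in any library.

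**Figure D2:**
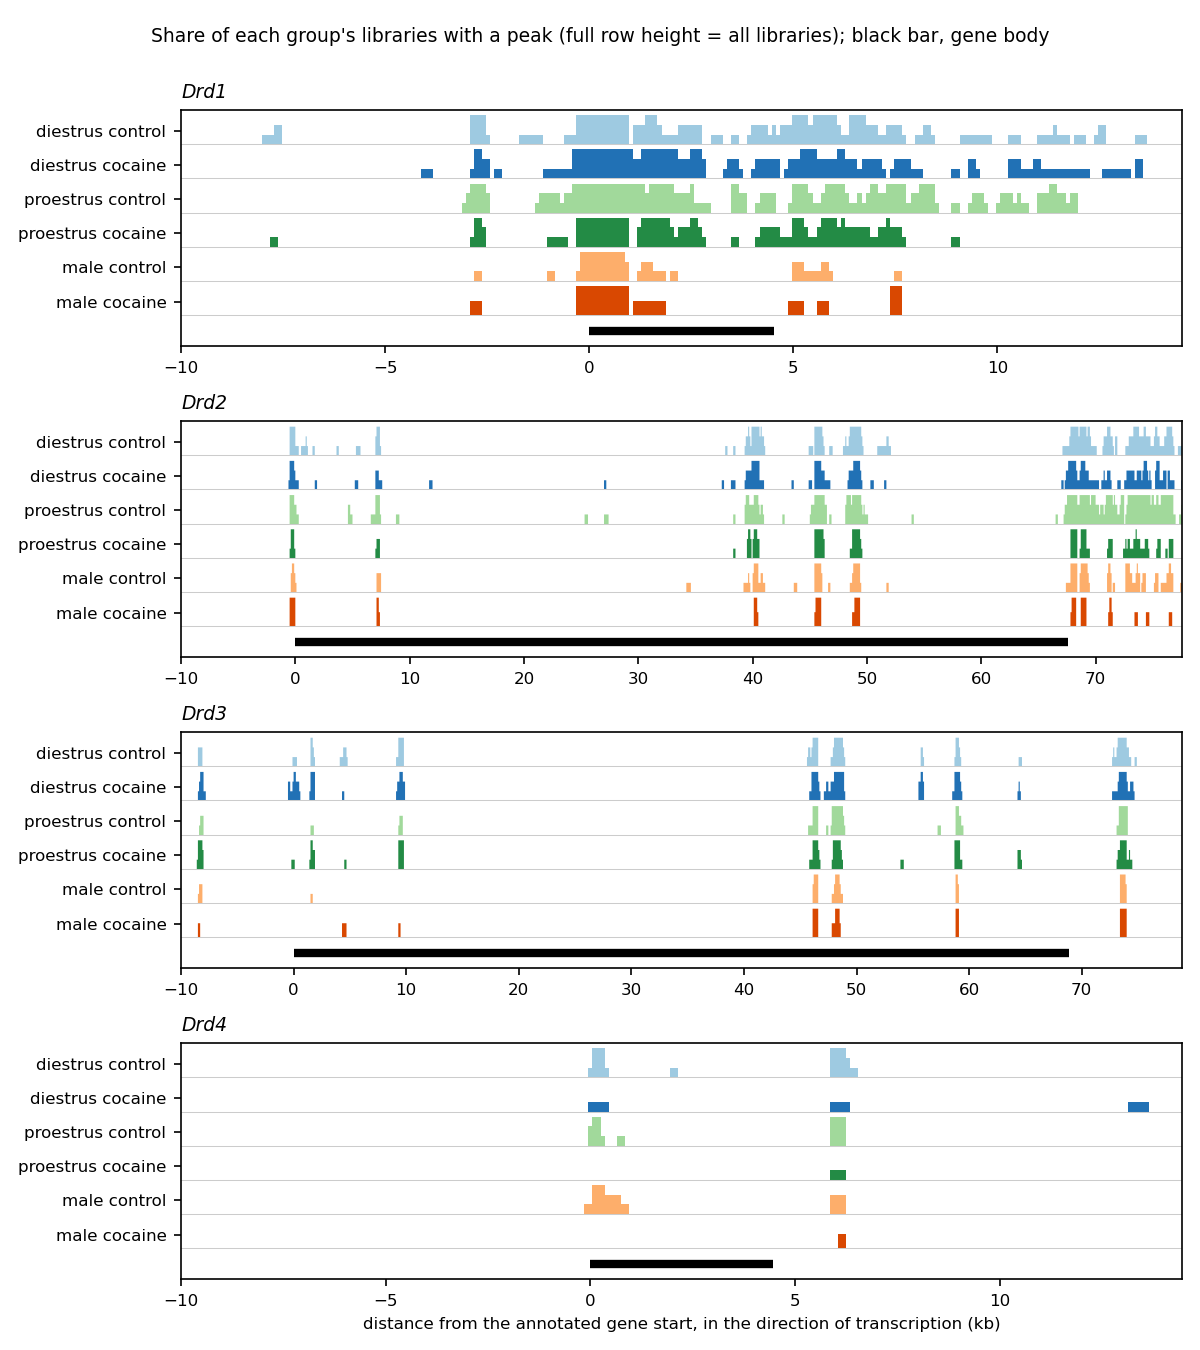
For Drd1 to Drd4, the x axis is the distance from the annotated start in the direction of transcription (kb), and each row gives the share of a group's libraries with a peak, full row height being all of them. The black bar is the gene body. Drd1 coverage is widest in the female groups, Drd2 and Drd3 open in blocks late in the gene and beyond it, and at Drd4 the cocaine rows are nearly empty.

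The number of open regions varied with group. Of the 31 kept regions, a library called 22 to 27 in diestrus controls, 19 to 27 in diestrus cocaine, 19 to 21 in proestrus controls, 18 or 19 in proestrus cocaine, 14 to 17 in male controls and 12 or 18 in male cocaine. The counts of male controls lay below those of every female control library. Since 10 of the 31 regions were called in no male library, the minimum that kept them was met by female groups. Over all 53 regions without that minimum, male controls called 14 to 19, diestrus controls 22 to 31 and proestrus controls 21 to 25. Of all 147420 kept regions of the series, male controls called 64.6% to 70.7%, diestrus controls 56% to 64.2% and proestrus controls 51.6% to 56.2%. By class, the 6 promoter regions were called 5.33 ± 0.58 times per library in diestrus controls, 3.67 ± 0.58 in proestrus controls and 3 times in each male control (mean ± SD, n = 3), the 10 flanking regions 7.33 ± 1.15, 6.33 ± 0.58 and 3.67 ± 0.58 times, and the 12 intronic regions 10 ± 1, 8 ± 1 and 7.33 ± 1.15 times. These class counts are over kept regions only, so the same minimum bears on them. The Drd2 promoter edge, for example, was kept through 2 diestrus controls alone. No share by class over the whole series stands beside them. Male controls held 134653 to 150009 peaks in all and female controls 122551 to 146224, with overlapping ranges.

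At Drd1 the difference lay in how far the opening extended. Peaks covered 30.9% ± 10.1 of the Drd1 window in diestrus controls, 36.5% ± 6.05 in proestrus controls and 9.43% ± 3.18 in male controls (SD, n = 3), and the male range of 5.76% to 11.5% lay below the lowest female control at 19.2%. The corresponding values were 33.8% ± 15.8 in diestrus cocaine, 23.6% ± 2.07 in proestrus cocaine and 7.30% and 13.1% in the male cocaine libraries. At Drd3 the male controls covered 2.61% ± 0.27, against 6.22% ± 1.05 and 4.40% ± 0.62 in diestrus and proestrus controls, again without overlap. At Drd2 male controls covered 6.38% to 10.5%, overlapping diestrus controls (8.34% to 16.8%) and not proestrus controls (15.9% to 18.5%). At Drd4 the ranges overlapped, at 1.11% to 6.00%, 2.60% to 6.24% and 2.73% to 3.66% in male, diestrus and proestrus controls. All peaks together covered 80.9 to 97.2 Mb in male controls and 78.1 to 96.9 Mb in female controls. Across the series 16.5% of kept regions were called in no male library and 10.1% in no female library. For the receptors these counts were 10 and 0 of 31, and the 10 were 5 regions of Drd1, 2 of Drd2 and 3 of Drd3.

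Fisher's exact test, two-sided, was then run on the calls of the 12 female and 5 male libraries, over the 64304 regions called in 4 to 13 libraries. No region of the series passed the Benjamini-Hochberg adjustment (0%), and 4.42% were called more often in females at an unadjusted p under 0.05. Of the 12 receptor regions tested, 3 were at that level, and 11 of 12 were called in a higher share of female libraries (median difference 41.7 percentage points, beside 6.67 for all regions tested). The Drd3 region at +9.5 kb had a peak in 11 of 12 libraries from females and 1 of 5 from males (exact p = 0.00986, adjusted p = 0.436). The intronic region at +1.6 kb of Drd3 was called in 10 of 12 and 1 of 5 (exact p = 0.0276, adjusted p = 0.493), and a region 6.79 kb past the end of Drd1 in 7 of 12 and 0 of 5 (exact p = 0.0441, adjusted p = 0.493). This comparison was added after the data had been seen. Some of the 12, among them the region 6.79 kb past Drd1, had no peak in any male library. Such regions were kept through female groups alone and could only count towards females, so they are no support for a difference. The 5 male libraries also include those with the fewest peaks of the series, male cocaine (75458 and 87707).

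Among the controls, the Drd3 region at +9.5 kb had a fold enrichment of 3.10, 3.13 and 3.01 in the diestrus libraries and 2.75 and 2.65 in 2 of 3 proestrus libraries, and it was called in no male control. The region 6.79 kb past Drd1 was called in all 3 proestrus controls, at 3.27, 3.95 and 3.22, in 2 of 3 diestrus controls, at 3.57 and 3.01, and in no male library. Both were weak peaks, with 23 to 40 and 23 to 33 reads at the summit.

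The 11 regions called in every library allowed their enrichment to be compared as a level. Fold enrichments were divided by a size factor per library (0.843 to 1.23, from the median ratio over all 36847 such regions) and are called scaled fold enrichments below. The factors differed by group, at 1.12 to 1.21 in male controls and 0.854 and 0.894 in male cocaine. They were 0.981 to 1.07 in diestrus controls and 0.858 to 0.945 in proestrus controls. Ranges and overlaps below are those of the scaled values, and some separations are absent before scaling. All differences are on the log2 scale of these values, from a single limma fit over the 17 libraries and 6 groups, with p-values adjusted over all 36847 regions. The scaling sets the median of all regions near 0 in every comparison, so each difference is relative to the typical open region.

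Male controls had lower enrichment at the receptor genes than female controls. Against diestrus controls, 8 of 11 regions were lower and 0 higher at an adjusted p under 0.05 (limma), where 11.9% of all regions were lower and 11.7% higher. Against proestrus controls, 8 of 11 were again lower and 0 higher, where 6.17% of all were lower and 7.33% higher. These comparisons share the male controls. The median log2 difference of the 11 regions was -0.56 and -0.59, with the median over all regions near 0. The count falls with the libraries used: against diestrus it was 3 without diestrus control 3 or without male control 2 and 4 without male control 3, and against proestrus it was 3 without proestrus control 3, 4 without proestrus control 2, male control 2 or male control 3, and 5 without proestrus control 1. It was 2 in each when a region took the mean of its peaks in place of the strongest.

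At the Drd2 promoter the scaled fold enrichment was 5.79, 5.53 and 5.48 in diestrus controls, 6.27, 5.02 and 6.12 in proestrus controls and 3.89, 3.55 and 3.66 in male controls. All 3 male libraries lay below all 6 female ones after scaling, while before it male control 1 lay above proestrus control 2. The log2 difference was -0.60 (SE 0.16, limma adjusted p = 0.00961) against diestrus and -0.64 (SE 0.16, adjusted p = 0.00988) against proestrus, and it kept an adjusted p of at most 0.0473 whichever library was left out.

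At the Drd1 promoter the values were 6.97, 8.14 and 6.77 in diestrus controls, 9.23, 8.02 and 10.2 in proestrus controls and 6.30, 6.37 and 5.49 in male controls. The male libraries again lay below every female library after scaling, by a small margin against diestrus. Before scaling, the ranges of male and female controls overlapped. This promoter region is 4638 bp wide, with its strongest summit at the start in 10 libraries and further inside in 7. Its level thus also compares different peaks between libraries. The difference was -0.59 (SE 0.17, limma adjusted p = 0.0176) against proestrus and -0.27 (SE 0.17, adjusted p = 0.241) against diestrus, and the former rose to an adjusted p of 0.0528, 0.0902 and 0.0872 without proestrus control 1, proestrus control 3 and male control 3. The region over the Drd1 3′ end was also lower against proestrus (-0.59, SE 0.15, limma adjusted p = 0.0111) and not past the threshold against diestrus (-0.36, SE 0.15, adjusted p = 0.0838). It is 5585 bp wide, and only 7 of 17 libraries had their strongest summit within 200 bp of the region's own. Its level thus compares different peaks between libraries, on 21 to 42 summit reads.

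At Drd3 the region past the gene's end, the strongest of that gene, had scaled fold enrichments of 12.2, 12.01 and 12.6 in diestrus controls, 11.6, 10.8 and 12.4 in proestrus controls and 9.56, 7.59 and 8.47 in male controls. The groups of different sex did not overlap after scaling, while before it male control 1 lay within the range of the proestrus controls. The difference was -0.53 (SE 0.14, limma adjusted p = 0.00823) against diestrus and -0.44 (SE 0.14, adjusted p = 0.0358) against proestrus. With the mean of its peaks in place of the strongest, the difference against diestrus turned to 0.0676 (adjusted p = 0.894) and that against proestrus was -0.45 (adjusted p = 0.309). Against diestrus the call was lost without male control 2 (adjusted p = 0.0577), and against proestrus without any 1 of the 3 proestrus controls, male control 2 or male control 3 (adjusted p from 0.0577 to 0.163). The intronic Drd3 regions at +46.3, +48.3 and +58.8 kb were lower in both comparisons, by differences of -0.46 to -0.64. The region at +48.3 kb was close to the threshold against proestrus (adjusted p = 0.0484), and 12 of the 17 fits without a library and 4 of 7 other settings ended that call, with adjusted p up to 0.388. At Drd2 the intronic region at +45.7 kb, at 11.6, 18.8 and 17.2 in diestrus controls, 12.2, 15.05 and 14.2 in proestrus controls and 10.4, 10.6 and 8.66 in male controls, was lower against diestrus (-0.66, SE 0.17, adjusted p = 0.00786) and missed the threshold against proestrus (-0.48, SE 0.17, adjusted p = 0.0621).

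In 9 of the 11 regions the scaled value of every male control lay below that of every female control, a pattern found in 11.5% of all regions (13% showed the reverse). The exceptions were the Drd2 region at +40.2 kb and the Drd3 region at +48.3 kb. In all, 10 of the 11 regions passed in at least 1 of the comparisons and 6 in both. The GABAergic and medium spiny neuron markers, which include Gad1 and Gad2, had a lower sum in male controls as well. Their summed scaled fold enrichment over 9 promoters, none of them of a receptor, was 83.8 to 94.4 in diestrus, 94.6 to 103 in proestrus and 74.2 to 80.1 in male controls. Of these 9 genes, Ppp1r1b and Tac1 were lower in male controls against diestrus, Gad1, Ppp1r1b and Tac1 against proestrus, and none was higher. The 4 pan-neuronal promoters summed to 60.0 to 68.5, 63.6 to 68.5 and 69.1 to 69.5. They did not move alike: against diestrus, Stmn2 was higher and Rbfox3 lower in male controls, and none passed against proestrus. The part of cell composition in the receptor differences was not tested.

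**Figure D3:**
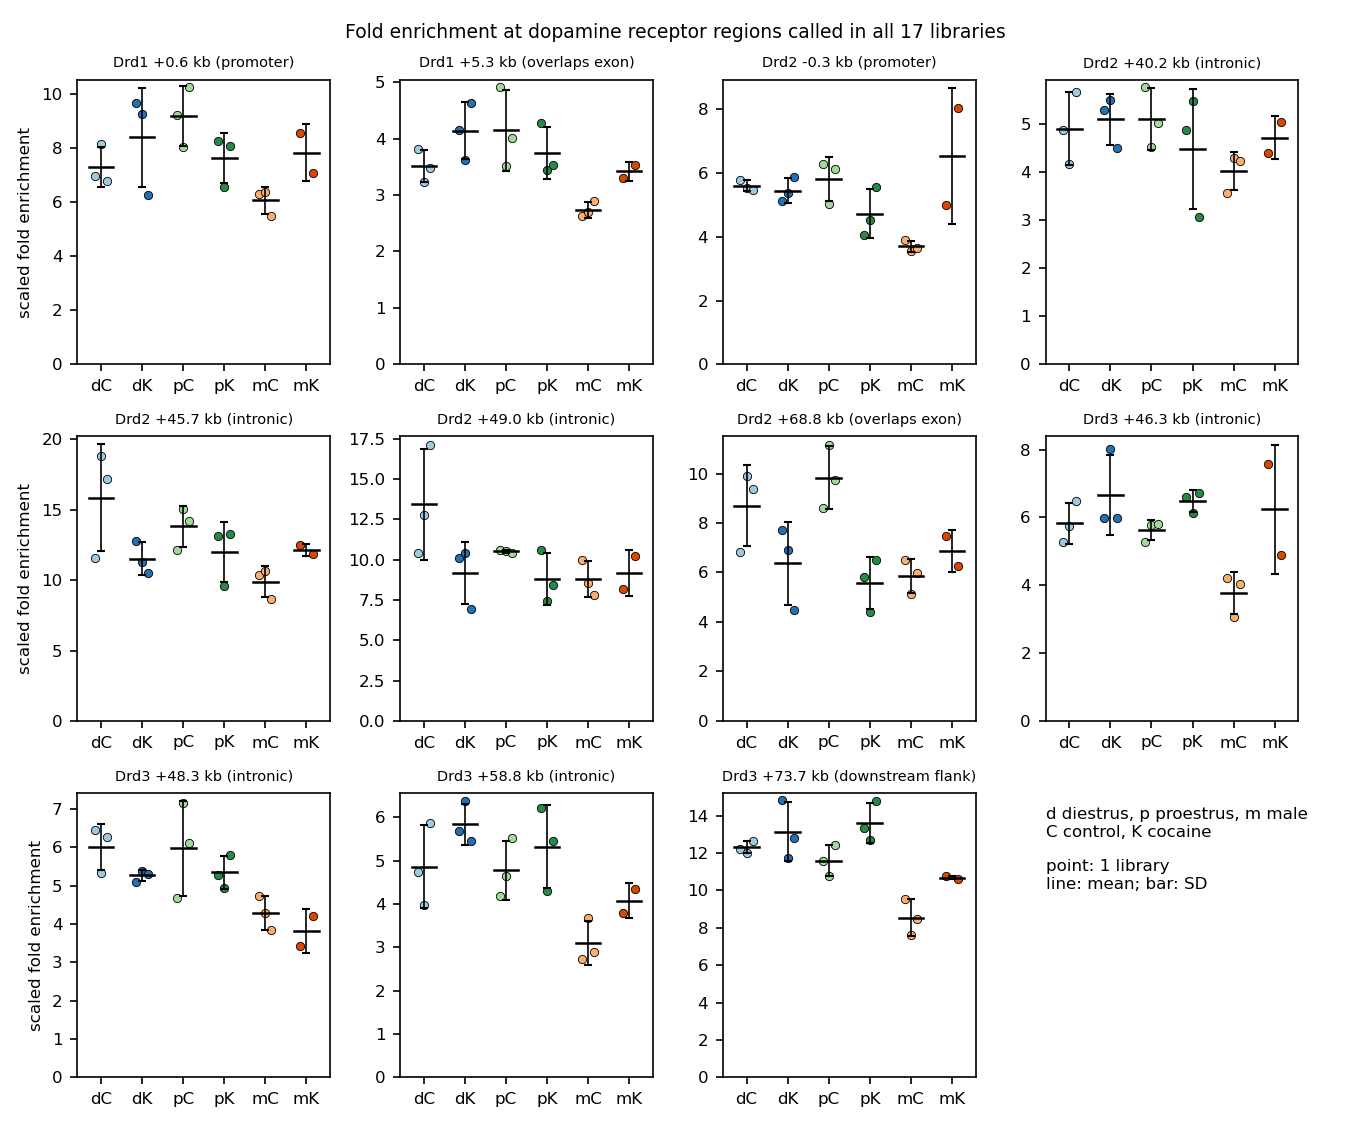
Scaled fold enrichment (y axis, from 0) of the 11 receptor regions called in all 17 libraries, by group. A point is 1 library, the line the group mean and the bar the SD (n = 3, or 2 for male cocaine). Male controls (mC) hold the lowest values in most panels, at 3.55 to 3.89 for the Drd2 promoter and 7.59 to 9.56 for the region past Drd3.

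Between proestrus and diestrus controls, 0 of the 11 regions passed in limma in either direction, where 0.0678% of all regions were higher and 0.32% lower. At an unadjusted p under 0.05 there were 0 of the 11, beside 5236 of all 36847 regions. The Drd1 promoter had the largest difference at 0.33 (95% interval -0.01 to 0.66, adjusted p = 0.374) and the Drd2 promoter had 0.04 (-0.29 to 0.38, adjusted p = 0.932). Differences of this size are not shown to be absent by these intervals.

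The comparison of cocaine with control asked whether a single dose altered accessibility at the receptors within the hour. In the calls, Fisher's exact test over 8 cocaine and 9 control libraries passed 0 of 64304 regions after adjustment (0%). At an unadjusted p under 0.05, 9.23% of all regions were called less often in cocaine libraries and 3.81% more often. Of the 12 receptor regions tested, 2 were called less often at that level and 0 more often, and both were those of Drd4. Of the 12, 8 were called in a higher share of cocaine libraries, which were the 7 tested regions of Drd3 and 1 of 2 at Drd1, and the median difference was 15.3 percentage points, beside -18.1 over all regions tested. None of these 8 passed even without adjustment, and in the female libraries alone 4 of the 12 regions tested there had the higher share in cocaine and 6 the lower.

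The Drd4 promoter was called in 3 of 3 diestrus, 3 of 3 proestrus and 3 of 3 male control libraries. It was called in 1 of 3 diestrus, 0 of 3 proestrus and 0 of 2 male cocaine libraries. Where called, the fold enrichment was 3.87, 3.91 and 5.50 in diestrus controls, 4.22, 4.87 and 3.32 in proestrus controls, 5.48, 3.03 and 3.73 in male controls and 5.10 in diestrus cocaine library 1, on 21 to 52 reads at the summit. The control libraries were thus complete and the cocaine libraries nearly empty, and the cocaine library with a call was the one with the most peaks of all 17. The exact p was 0.000411 (Fisher, two-sided) and the adjusted p 0.145, which was also the smallest adjusted p of any region. In the female libraries alone, an analysis added after the data were seen, the calls were 6 of 6 and 1 of 6 (exact p = 0.0152, adjusted p = 0.385), where 1.27% of all regions were called less often at an unadjusted p under 0.05.

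The region 1.56 kb past Drd4, inside Deaf1, had fold enrichments of 5.68, 5.02 and 4.46 in diestrus controls, 6.23, 6.27 and 5.40 in proestrus controls and 4.46 and 5.38 in 2 of 3 male controls. In cocaine libraries it was called at 3.68 in 1 of 3 diestrus, 5.45 in 1 of 3 proestrus and 3.17 in 1 of 2 male libraries. It was called in 8 of 9 control and 3 of 8 cocaine libraries (exact p = 0.0498, adjusted p = 0.382). Its summits lay 6009 to 6022 bp from the Drd4 start in all 11 libraries.

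The letters upstream of Drd4 are shown because this promoter had the largest difference in calls among the receptors. The capitals mark 3 GC boxes, the leftmost pair of which overlap. A GC box was found in 32.4% of 32851 promoters over the same length upstream of the start, and in 32.7% over the length of the Drd2 sequence.
Drd4 upstream, chr7:141291768-141292005, plus strand: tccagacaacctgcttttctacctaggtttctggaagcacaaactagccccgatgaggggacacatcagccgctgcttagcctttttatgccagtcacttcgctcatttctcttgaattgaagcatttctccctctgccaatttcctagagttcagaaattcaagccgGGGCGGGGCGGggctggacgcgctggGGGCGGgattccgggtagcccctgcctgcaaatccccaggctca

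GC content moved with the calls across the series. The tested regions were divided into 10 equal classes by GC content. In the lowest class 42.0% were called less often in cocaine libraries, and in the highest, with a GC content over 52.5%, 86.8% were, and 18.1% of that class at an unadjusted p under 0.05. The Drd4 promoter, at 60.5%, belongs to the highest class, and its neighbour, at 46.8%, to a class in which 74.0% were called less often. Of 746 tested regions with a GC content at least that of the Drd4 promoter, 73.9% were called less often in cocaine, and 1, the Drd4 promoter itself, had a p that small. Over all regions 183 (0.285%) had a p at or under that of the Drd4 promoter, and 71.0% of them were called less often in cocaine. The mean GC content of the peaks was 46.3% to 46.9% in proestrus controls and 44.3% to 46.0% in proestrus cocaine, and 45.6% to 46.9% and 45.9% to 46.1% in the diestrus groups. The part of GC content in the Drd4 difference was not tested.

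**Figure D4:**
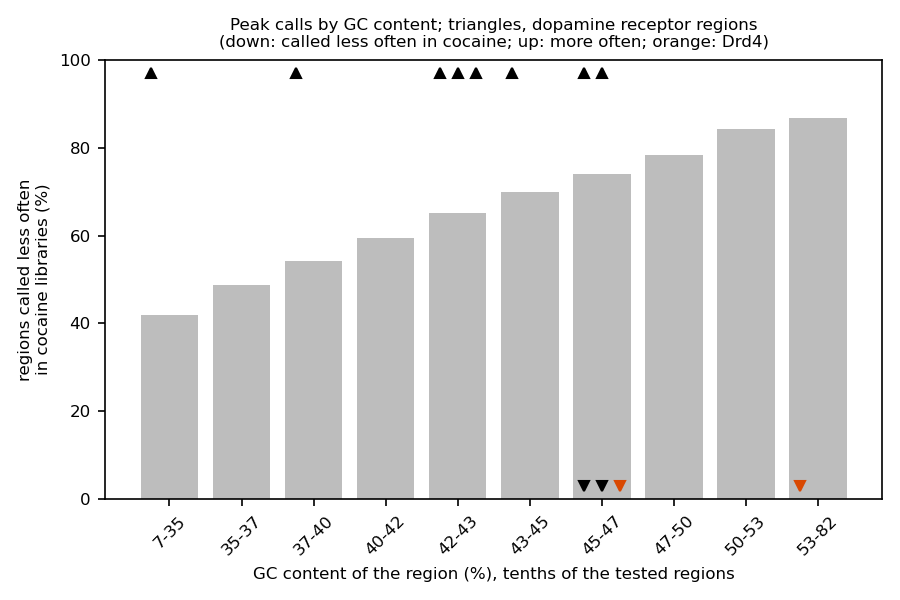
Bars give the percentage of tested regions that were called in a smaller share of cocaine than of control libraries, in 10 equal classes of GC content (x axis, percent), rising from 42.0% to 86.8%. Triangles at the edges place the 12 tested receptor regions in their class, pointing down where called less often in cocaine and up where more often, with Drd4 in orange.

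Library size moved with the calls as well. Among males, 16.8% of all kept regions were called in every control and no cocaine library, against 1.66% in the opposite direction. In proestrus, where the libraries were of like size, these shares were 1.64% and 2.45%, and in diestrus 1.26% and 1.16%. With 3 libraries against 3 or 2 no exact p under 0.1 can be reached within a sex and stage, so complete separations are given as counts. There were 3 among the receptor regions, all with calls in controls only: the Drd4 promoter in proestrus and in males, and the region 6.79 kb past Drd1 in proestrus. When each library was cut to its 75458 strongest peaks, the Drd4 promoter was called in 3, 3 and 2 of 3 control libraries and in 1 of 3, 0 of 3 and 0 of 2 cocaine libraries (exact p = 0.00337). That p is not adjusted, and no share of all regions at its level under the same cut stands beside it. The part of library size in the Drd4 difference was not tested.

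The Drd1 downstream region that was called at 3.27, 3.95 and 3.22 in proestrus controls and in 0 of 3 proestrus cocaine libraries was called in 2 of 3 libraries of each diestrus group, at 3.57 and 3.01 in controls and 3.80 and 2.76 in cocaine. Over all libraries its calls were 5 of 9 and 2 of 8 (exact p = 0.335, adjusted p = 0.695). The sequence around its summit is shown because, beside the Drd4 promoter, it was the receptor region whose calls separated cocaine from control within a sex and stage. It held no match to the motifs searched (AP-1, TGACTCA; CRE, TGACGTCA; GC box, GGGCGG; Egr, GCGTGGGCG; each on both strands).
Drd1 downstream summit, chr13:54044291-54044491, minus strand: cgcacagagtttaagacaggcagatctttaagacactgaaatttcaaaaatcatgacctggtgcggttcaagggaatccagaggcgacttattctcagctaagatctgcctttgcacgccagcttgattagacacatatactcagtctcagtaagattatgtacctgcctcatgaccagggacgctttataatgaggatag

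The annotated Drd3 promoter and the region at +9.5 kb showed no difference with cocaine that passed. The annotated promoter was called at 2.45 and 2.49 in 2 of 3 diestrus controls, at 2.26, 3.02 and 2.87 in diestrus cocaine, at 2.57 in 1 of 3 proestrus cocaine libraries and in none of the proestrus controls or males (2 of 9 control against 4 of 8 cocaine libraries, exact p = 0.335). The region at +9.5 kb was called in 5 of 9 and 7 of 8 (exact p = 0.294, adjusted p = 0.695).

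In enrichment, cocaine differed from control at few receptor regions, and not at the same ones in each sex and stage. In males 2 of 11 regions were higher and 0 lower (limma, adjusted p under 0.05), where 3.09% of all regions were higher and 5.42% lower. In proestrus 0 were higher and 1 lower (1.52% and 1.19% of all regions). In diestrus 0 passed in either direction (4.47% and 4.94%). At an unadjusted p under 0.05 there were 3 of the 11, beside 10608 of all 36847 regions, a like share. The median log2 difference of the 11 regions was 0.32 in males, -0.21 in proestrus and 0.06 in diestrus, with all regions near 0.

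The Drd2 promoter was the region with the largest rise in males. Its scaled fold enrichment was 3.89, 3.55 and 3.66 in male controls and 5.01 and 8.03 in male cocaine. Both cocaine libraries lay above all 3 controls after scaling, and they differed from each other by more than the controls did from the lower of them. Before scaling, male cocaine library 1 lay below male control 1. The log2 difference was 0.78 (95% interval 0.41 to 1.15, limma adjusted p = 0.00734), or 1.72-fold. Without male cocaine library 2 it was 0.45 and no longer passed (adjusted p = 0.291), with the lone library assumed to vary like the other groups. The summits held 28 to 60 reads over the 17 libraries.

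In females the same promoter gave 5.11, 5.38 and 5.86 in diestrus cocaine beside 5.79, 5.53 and 5.48 in controls, and 4.07, 4.51 and 5.58 in proestrus cocaine beside 6.27, 5.02 and 6.12. The groups overlapped in both stages, with differences of -0.04 (-0.37 to 0.29, adjusted p = 0.893) and -0.30 (-0.64 to 0.03, adjusted p = 0.288). The cocaine effect in males minus the mean of those in females was 0.95 (SE 0.22, limma adjusted p = 0.00564), and 2 of 11 receptor regions had a larger effect in males by this test and 0 a smaller one, beside 7.66% and 8.22% of all regions. Of the male cocaine libraries, the one at 5.01 lay within the range of the females and the one at 8.03 above it. Without male cocaine library 2 the difference between the sexes was 0.62 (adjusted p = 0.114).

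The intronic Drd3 region at +46.3 kb also rose in males. It had scaled fold enrichments of 4.20, 3.06 and 4.04 in male controls and 7.58 and 4.90 in male cocaine, without overlap. Before scaling, male cocaine library 2 lay within the range of the male controls. The difference was 0.71 (0.32 to 1.09, limma adjusted p = 0.0179), and it no longer passed without male cocaine library 1 (0.39, adjusted p = 0.405) or male control 2 (0.56, adjusted p = 0.0994), or when the mean of its peaks was taken (0.62, adjusted p = 0.121). In females the values were 5.26, 5.74 and 6.47 in diestrus controls, 5.98, 8.02 and 6.00 in diestrus cocaine, 5.29, 5.77 and 5.81 in proestrus controls and 6.61, 6.13 and 6.71 in proestrus cocaine. The proestrus groups did not overlap, but the difference of 0.21 (-0.14 to 0.55, adjusted p = 0.499) was within the fitted spread. Averaged over both stages and males the region was higher in cocaine by 0.37 (0.16 to 0.57, adjusted p = 0.0174), as were 5.95% of all regions, and this was 0.26 without male cocaine library 1 (adjusted p = 0.128) and 0.37 with the mean of its peaks (adjusted p = 0.0869). The bases within 100 of its summit are shown because they hold an AP-1 site in capitals, the sequence bound by Fos and Jun proteins, which neurons induce after stimulation. Of 147420 kept regions 10.1% had such a site within the same distance of the summit, and of the 31 receptor regions 5 had one.
Drd3 intronic summit, chr16:43800234-43800434, plus strand: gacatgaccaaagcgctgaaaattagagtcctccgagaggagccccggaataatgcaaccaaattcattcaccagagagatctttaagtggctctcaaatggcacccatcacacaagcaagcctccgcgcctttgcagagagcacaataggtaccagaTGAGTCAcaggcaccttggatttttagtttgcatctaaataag

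The region past the 3′ end of Drd2 fell in proestrus. Its values were 8.61, 11.2 and 9.72 in proestrus controls and 5.80, 4.41 and 6.49 in proestrus cocaine, without overlap. The difference was -0.83 (-1.22 to -0.44, limma adjusted p = 0.0208), or 0.562-fold. It missed the threshold without proestrus control 2 (-0.74, adjusted p = 0.0986), proestrus control 3 (-0.84, adjusted p = 0.0680) or proestrus cocaine library 1 (-0.87, adjusted p = 0.0673), when the mean of its peaks was taken (-0.57, adjusted p = 0.140), and with the replicate number as a block (-0.99, adjusted p = 0.0522). In diestrus the values were 6.84, 9.92 and 9.36 in controls and 7.71, 6.92 and 4.50 in cocaine, with a difference of -0.47 (-0.86 to -0.08, adjusted p = 0.105), and the groups overlapped. In males they were 6.51, 5.14 and 5.97 in controls and 7.46 and 6.26 in cocaine (0.22, -0.21 to 0.66, adjusted p = 0.544).

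The cocaine effect at this region differed between males and females by 0.87 (SE 0.25, limma adjusted p = 0.0213). It missed the threshold without male control 2 (0.78, adjusted p = 0.0718), male cocaine library 1 (0.75, adjusted p = 0.137) or male cocaine library 2 (1.01, adjusted p = 0.0539). The mean effect over the 3 pairs of groups was -0.36 (-0.59 to -0.12, adjusted p = 0.0371), beside 7.42% of all regions lower. Leaving out any of 10 libraries ended this call, as did quantile normalization, log2 of the fold enrichment minus 1, GC correction and the mean of its peaks. The effects in proestrus and diestrus were not shown to differ at any of the 11 receptor regions, and over the series 2 regions did (0.00543%). The sequence at its summit is shown as that of the receptor region with the largest fall, and holds 1 GC box, in capitals.
Drd2 3′ summit, chr9:49409350-49409550, plus strand: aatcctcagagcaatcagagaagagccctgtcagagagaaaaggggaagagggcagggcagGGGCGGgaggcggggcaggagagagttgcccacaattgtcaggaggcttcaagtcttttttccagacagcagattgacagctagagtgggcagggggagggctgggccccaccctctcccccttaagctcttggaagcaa

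At the Drd1 promoter cocaine gave no difference that passed. The level there takes whichever summit was stronger in a library, as stated above. In males the values were 6.30, 6.37 and 5.49 in controls and 8.56 and 7.08 in cocaine. The groups did not overlap after scaling but did before it, and the difference of 0.37 (-0.01 to 0.75, limma adjusted p = 0.221) did not pass. In diestrus the cocaine libraries, at 9.64, 9.23 and 6.27, spanned the controls at 6.97, 8.14 and 6.77 (0.18, -0.16 to 0.52, adjusted p = 0.497). In proestrus cocaine the values were 8.24, 6.56 and 8.08 beside 9.23, 8.02 and 10.2 in controls, and the groups overlapped (-0.26, -0.60 to 0.07, adjusted p = 0.364). The intervals reach 0.75, 0.52 and -0.60.

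The intronic Drd2 regions leaned downward in diestrus. At +49.0 kb the controls had 10.4, 12.7 and 17.1 and the cocaine libraries 10.1, 10.4 and 6.95 (-0.54, -0.92 to -0.17, limma adjusted p = 0.0574). At +45.7 kb they had 11.6, 18.8 and 17.2 and 12.8, 11.3 and 10.5 (-0.43, -0.79 to -0.08, adjusted p = 0.0992). In neither case did the difference pass the threshold, and the groups overlapped in both.

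**Figure D5:**
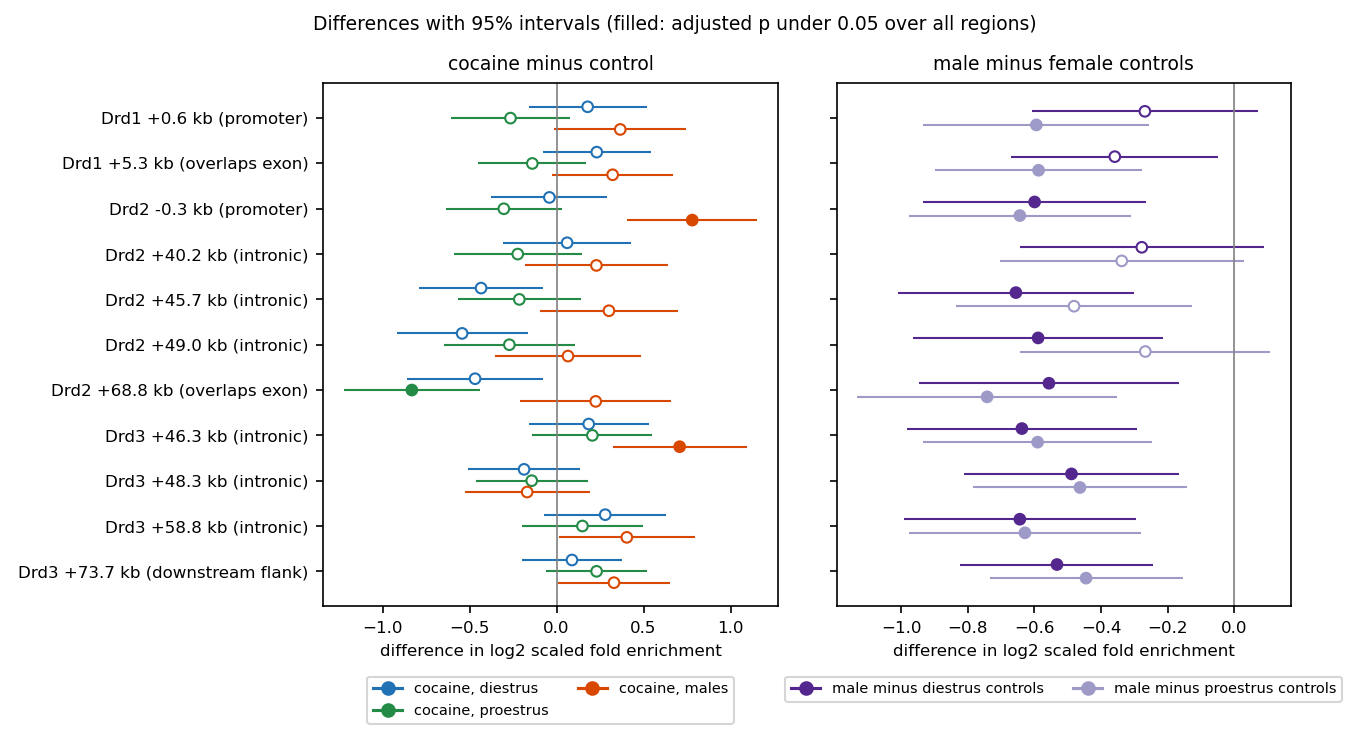
Differences in log2 scaled fold enrichment (x axis) with 95% intervals for the 11 receptor regions, cocaine minus control in diestrus, proestrus and males on the left and male minus female controls on the right. Filled points have an adjusted p under 0.05 over all 36847 regions. On the left the filled points are the Drd2 promoter (0.78) and the Drd3 region at +46.3 kb (0.71) in males and the Drd2 3′ region (-0.83) in proestrus, while on the right most points lie below 0.

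The order of the groups at the Drd1 promoter ran from proestrus control (mean scaled fold enrichment 9.16 ± 1.10, SD) through diestrus cocaine (8.38 ± 1.84), male cocaine (7.82 ± 1.04), proestrus cocaine (7.63 ± 0.93) and diestrus control (7.30 ± 0.74) to male control (6.05 ± 0.49). At the Drd2 promoter it ran from male cocaine (6.52 ± 2.14) through proestrus control (5.80 ± 0.69), diestrus control (5.60 ± 0.17), diestrus cocaine (5.45 ± 0.38) and proestrus cocaine (4.72 ± 0.77) to male control (3.70 ± 0.17). At both, each neighbouring pair overlapped in range except the last, where male controls stood below. Across the 17 libraries the levels of these 2 promoters had a Pearson r of 0.43, and they share library and depth. The Drd1 level, here and in the comparison with other promoters below, mixes different summits between libraries.

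Over the same 17 libraries, the promoters on other chromosomes most like that of Drd1 were those of Sp9 (r = 0.81), Sult4a1 (r = 0.80) and Neu2 (r = 0.79), of 10147 compared, 5.38% of which had an r over 0.5. Sp9 encodes a transcription factor of striatal projection neurons. For Drd2 they were Gm38393 (r = 0.78), Tldc1 (r = 0.76) and Gm10800 (r = 0.76), of 9951 compared, 3.21% over 0.5. These are descriptions over libraries that share depth and base composition.

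The other genes of dopamine signalling were examined as a list of 45, of which 41 had a promoter peak in all 17 libraries. The remaining 4 were Th and Slc18a2, which make and package dopamine in the neurons that release it, Slc6a3, the dopamine transporter, and Maob, and none of them had a promoter peak in any library. In diestrus 5 promoters were higher and 3 lower with cocaine (limma, adjusted p under 0.05), in proestrus 0 and 0, and in males 1 and 0, beside the shares of all regions given above for these comparisons. At an unadjusted p under 0.05, proestrus had 10 of the 41 promoters, beside 7639 of all 36847 regions. The diestrus count rests on single libraries: it fell to 0 without diestrus control 2, diestrus control 3, diestrus cocaine 2 or diestrus cocaine 3 and rose to 12 without proestrus cocaine 2 and 17 without diestrus cocaine 1. The male count was 0 without male control 2, male control 3 or either male cocaine library.

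Among enzymes of dopamine synthesis and clearance, 3 of 7 could be tested, and 2 rose in diestrus. Ddc, which converts L-DOPA to dopamine, had scaled fold enrichments of 3.29, 2.82 and 2.79 in diestrus controls and 3.37, 5.27 and 6.13 in diestrus cocaine, without overlap (0.69, SE 0.20, limma adjusted p = 0.0304). Maoa, the X-linked gene of a monoamine-degrading enzyme, had 11.6, 11.3 and 13.3 and 13.6, 24.4 and 21.3 (0.67, SE 0.18, adjusted p = 0.0210). In both the diestrus cocaine library 1 was close to the controls. Maoa had 15.6, 19.3 and 17.4 in male controls and 14.9 and 14.8 in male cocaine.

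Of the 10 G-protein genes none passed the test in the 3 comparisons of cocaine with control, and the nearest was Gnai1, an inhibitory G-protein subunit, at 0.49 in diestrus (0.15 to 0.82, limma adjusted p = 0.0556). Of 11 effectors, Creb1 rose and Ppp1ca and Pde1b fell in diestrus. Ppp1ca, a catalytic subunit of protein phosphatase 1, had 21.1, 28.3 and 23.9 in controls and 21.4, 16.3 and 11.4 in cocaine (-0.61, SE 0.19, limma adjusted p = 0.0412), with an overlap of 1 library. Pde1b, a phosphodiesterase of striatal neurons, had 32.2, 40.7 and 38.6 and 34.6, 25.2 and 20.8 (-0.49, SE 0.16, adjusted p = 0.0488), again with library 1 among the controls.

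Of 9 regulators, Rgs2 and Rgs4, which shorten G-protein signals, rose in diestrus and Arrb2, an arrestin that binds activated receptors, fell. Rgs2 had 25.5, 24.3 and 22.7 in controls and 30.3, 39.5 and 35.3 in cocaine (0.53, SE 0.14, limma adjusted p = 0.0231), and Rgs4 had 12.6, 12.6 and 12.9 and 17.1, 21.1 and 17.3 (0.53, SE 0.15, adjusted p = 0.0280), neither with overlap. Arrb2 had 31.4, 43.3 and 39.2 and 34.1, 22.8 and 16.5 (-0.69, SE 0.19, adjusted p = 0.0279), with overlap. Grk2, a receptor kinase, was the promoter that rose in males, from 7.15, 4.77 and 5.58 to 9.41 and 8.71 (0.65, SE 0.19, adjusted p = 0.0282). Of the 8 genes for channels and receptor partners none passed the test, and the largest difference among those with an adjusted p under 0.1 was at Kcnj3, a potassium channel gated by G proteins, with 0.58 in proestrus (0.22 to 0.94, limma adjusted p = 0.0629).

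Of the 9 GABAergic and medium spiny neuron markers tested, Penk and Tac1 were higher in diestrus cocaine, 0 were lower and 7 did not pass, among them Ppp1r1b at -0.43 (limma adjusted p = 0.0767) and Bcl11b at -0.20 (adjusted p = 0.437). Their summed scaled fold enrichment was 83.8 to 94.4 in diestrus controls and 97.3 to 112 in diestrus cocaine, and of the other markers Rbfox3 and Slc17a7, a marker of excitatory neurons, were lower. In males the sums were 74.2 to 80.1 in controls and 87.4 to 88.5 in cocaine, with Gad1 higher, and in proestrus 94.6 to 103 and 98.8 to 101. The sum was thus higher in cocaine in diestrus, where 0 of 11 receptor regions passed, and in males, where 2 did. Its part in the receptor differences was not tested.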

How the data were processed

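Neuronal NAc nuclei of 17 libraries were profiled by ATAC-seq. The authors mapped the reads to mm10 by BWA-MEM. Each library then had its own MACS2 peak calling (version and options not given in the sources used here). Read counts in peaks, which the study tested, were not used here. Each deposited peak carries a score, a fold enrichment (a ratio over background), and −log10 p-values and −log10 q-values, computed within that library. The deposited fold enrichments were whole multiples of 1 read in 100% of peaks (tolerance 0.01 of a step), which gave the background pileup. The total depth is unknown.

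Groups were taken from the sample titles, since 1 diestrus cocaine library had an empty stage label. Peaks sharing at least 1 bp were merged over libraries, with GENCODE vM21 genes on GRCm38 (mm10), and sequences were read from the RefSeq copy of GRCm38. Calls were compared by Fisher's exact test (scipy 1.17.1), and centred log2 fold enrichments of regions called in all libraries on chromosomes 1 to 19 and X by limma 3.58.1 in R 4.3.3, without a replicate block. Both were tested on simulated data. Benjamini-Hochberg adjustment was over all regions tested. Replicates were separate pools, and p-values measure the spread between them.

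Named regions were all promoters, the 3 other regions per gene called in most libraries, and those passing a test or separating groups, with a few weaker ones chosen after their values were seen; up to 8 signalling genes past the limma threshold were named, and the 3 promoters most like each receptor's. The members, lists and motifs were chosen with earlier results of these data known. Alternatives were equal peak numbers, a −log10 q of at least 5, other windows, merging, scaling, GC correction, a replicate block and leaving out each library.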

Additional observations from a re-analysis of the deposited data

Results flagged for a closer look

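The following 5 results were marked because the cocaine effect in males differed from the mean effect in the female stages by the limma interaction test, where 7.66% of all regions had a larger effect in males and 8.22% a smaller one. The difference on the log2 scale was 0.95 for the Drd2 promoter and 0.87 for the region past the Drd2 3′ end (adjusted p = 0.00564 and 0.0213). Among the signalling genes that changed with cocaine it was -0.75 for the promoter of Maoa, 0.87 for that of Ppp1ca and 0.97 for that of Grk2. All rest on 2 male cocaine libraries, and in no receptor group of 4 or more libraries could an outlying library be tested for, since groups held 2 or 3.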

How the results depend on the processing

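The sign of the difference and the side of the threshold were stable for most values. With each library cut to equal peak numbers, 7 receptor regions in place of 11 were called in all libraries and 5 in place of 3 separated groups; with 50 kb windows 19 were called in all libraries. Taking the mean of a region's peaks lowered the counts past the limma threshold most, to 0 in proestrus, 1 in males, 0 for the mean effect and 2 in each comparison of male with female controls, and turned the difference past the Drd3 end between male and diestrus controls to 0.0676; the cause was not tested. The mean effect kept 1 region under quantile normalization, under log2 of fold enrichment minus 1 and under GC correction. The signalling promoters past the threshold in proestrus were 1 under quantile normalization and under GC correction.

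The replicate numbers did not pair the libraries: deviations of same-numbered libraries correlated at -0.29 to 0.43 (36 pairs, mean 0.0021). With the replicate block, in which proestrus cocaine 4 is alone in its number and so drops out, proestrus had 0 receptor regions (the Drd2 3′ region at -0.99, adjusted p = 0.0522) and males 0 signalling promoters. With the block and GC correction together the proestrus count was 1. The block changed no other count of receptor regions by more than 1.5 times.

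Leaving out each library in turn gave 3 to 5 separations, 0 to 3 regions in diestrus, 0 to 1 in proestrus, 1 to 2 in males, 0 to 3 for the mean effect, 3 to 8 and 3 to 9 for male against diestrus and proestrus controls and 0 to 3 for males minus females. Signalling promoters ranged over 0 to 17 in diestrus, 0 to 2 in proestrus and 0 to 2 in males. The Drd2 promoter ranged from -0.0843 to 0.00515 in diestrus, changing sign without diestrus cocaine 1, and from 0.446 to 1.12 in males. The Drd4 difference ranged from -100 to -85.7 percentage points (exact p from 8.74e-05 to 0.0014). Weak peaks near the caller's threshold limit what a missing call can show, and summit reads of 18 to 179 limit the precision of levels.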
